A study of Mus musculus with 6 samples.

Results

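The CDK inhibitor genes of mouse comprise the CIP/KIP family (Cdkn1a, Cdkn1b and Cdkn1c, which encode p21, p27 and p57) and the INK4 family (Cdkn2a, Cdkn2b, Cdkn2c and Cdkn2d, which encode p16, p15, p18 and the INK4 protein p19). They were followed here in haematopoietic stem cells (HSCs) that did or did not carry a nuclear label after a chase of 170 days. Members were taken by gene symbol, as every probe set of the array annotated to 1 of the 7 genes and to no other gene. This gave 9 probe sets of 45037, or 7 of 18193 named genes, with 2 probe sets each for Cdkn1a and Cdkn1b and 1 for each other member. No filter on low values was applied, so all 9 entered the comparison.

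All samples came from SCL-tTA H2B-GFP mice, in which the tTA-S2 transactivator is expressed from the endogenous scl locus and drives a fusion of histone H2B with green fluorescent protein (GFP) until doxycycline is given. The label therefore depends on activity of that locus, which limits it to HSCs and progenitors. Bone marrow was sorted for Sca1+ and cKit+ cells that were CD150+ and negative for Lin, CD48 and CD34. GFP+ cells of that gate form the label-retaining group (LRC) and GFP Neg cells the non-LRC group, with 3 independent samples and 3 arrays each. Both groups carry the same transgenes and had the same doxycycline. Age, sex and the number of mice in a sample are not given in the sources used here.

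Cyclin-dependent kinases drive cells through the division cycle once a cyclin is bound. INK4 proteins bind CDK4 and CDK6 and keep D-type cyclins from activating them, while CIP/KIP proteins bind whole cyclin-CDK complexes and block CDK2 above all. With these kinases restrained, the pocket proteins of the RB family stay bound to E2F factors and genes of DNA replication stay off. In HSCs, p57 is known for its part in quiescence, p27 overlaps with it, p21 is a target of p53, and p16 together with ARF, a second protein made from the same gene, is held low by Polycomb proteins such as Bmi1.

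Promoter sequences are shown for the INK4 members on which the probe sets leave a question of identity or differed most. Cdkn2a has 2 RefSeq starts, 12427 bases apart, and the files do not say which of them its 1 probe set reads. Cdkn2c had the largest difference between the groups. RefSeq promoter windows of GRCm38.p6 were found for 6 of the 7 members. Each window below is the 250 bases upstream of a start on the minus strand, 5′ to 3′, with E2F motifs (TTTCGCGC, TTTGGCGC, TTTCCCGC or TTTGCCGC) and GC boxes (GGGCGG), searched on both strands, in capitals.
Cdkn2a, upstream start, chr4:89294620-89294869: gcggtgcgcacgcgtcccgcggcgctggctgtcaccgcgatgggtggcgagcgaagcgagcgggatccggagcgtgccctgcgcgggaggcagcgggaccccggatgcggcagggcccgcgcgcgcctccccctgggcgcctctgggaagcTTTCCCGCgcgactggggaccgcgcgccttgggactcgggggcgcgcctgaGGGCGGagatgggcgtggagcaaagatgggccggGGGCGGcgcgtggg
Cdkn2a, downstream start, chr4:89282193-89282442: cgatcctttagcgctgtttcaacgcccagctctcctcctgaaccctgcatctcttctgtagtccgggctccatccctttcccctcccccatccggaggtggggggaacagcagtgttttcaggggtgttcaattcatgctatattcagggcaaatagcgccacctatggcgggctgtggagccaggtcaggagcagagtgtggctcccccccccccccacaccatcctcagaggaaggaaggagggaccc
Cdkn2c, upstream start, chr4:109666757-109667006: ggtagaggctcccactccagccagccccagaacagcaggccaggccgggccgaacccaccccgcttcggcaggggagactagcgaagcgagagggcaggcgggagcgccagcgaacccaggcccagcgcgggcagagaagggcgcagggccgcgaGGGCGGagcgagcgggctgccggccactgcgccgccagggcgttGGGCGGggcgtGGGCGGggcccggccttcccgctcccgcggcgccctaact

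The upstream Cdkn2a window held 1 E2F motif, which begins 99 bases before the start, and 2 GC boxes, while the downstream window held none of either. An E2F motif was found in 1.86% of all 32851 promoter windows of that length and a GC box in 32.7%. The upstream Cdkn2c window held 3 GC boxes and no E2F motif. A second Cdkn2c start, whose window (chr4:109665373-109665622) is not printed, had neither motif and a GC content of 42.8%. The GC content of the upstream Cdkn2c window was 77.2% and that of the upstream Cdkn2a window 78.4%, against a median of 52.4% over all windows. Among the 9 member starts in the table, the upstream Cdkn2a start alone had an E2F motif. None had the FoxO motif GTAAACA, which 3.17% of all windows held. These matches describe the letters of the windows, and binding was not measured.

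Expression is given as the authors' log2 values, in which 1 unit is a 2-fold change, and differences are LRC minus non-LRC with limma's moderated standard error (SE). Array medians lay between 4.33 and 4.39, and correlations between arrays across probe sets between 0.901 and 0.970. Of the genes of the long-term HSC list, 9 of 9 measured were brighter than the median probe set. Kit reached 9.13 in LRC and 9.11 in non-LRC, and Cd48 stayed at or under 3.27. Slamf1, which encodes CD150, lay between 6.243 and 8.825 in LRC and between 7.203 and 8.475 in non-LRC. Ly6a, the Sca1 gene of the gate, was not among the measured genes. Cd34, which the gate excludes, lay between 2.52 and 6.97 in LRC and between 5.62 and 7.43 in non-LRC. The per-array means of the HSC gate, progenitor, erythroid, megakaryocyte, myeloid, B cell, T and NK cell, endothelial and stromal marker lists overlapped between the groups. LRC replicates 1 and 3 had brighter hybridization controls, transcripts added to the labelled sample (11.06 and 10.79), than the other 4 arrays (10.35 to 10.50). The Gapdh control probe set of the 3-prime end exceeded that of the 5-prime end most on LRC replicate 1, by 4.16 log2 units. On the other arrays this excess was 2.72 to 3.42, and for Actb it ran from -0.61 to -0.04 over all arrays. What this means for the members was not tested. Replicate 2 of both groups had high Xist (11.58 in LRC and 11.65 in non-LRC) and low Eif2s3y (2.82 and 2.28), a Y-linked gene, whereas the other 4 arrays had Xist at 3.54 to 5.13 and Eif2s3y at 7.86 to 8.74. Results of the members are therefore also given within those 4 arrays and within replicate 2.

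No CDK inhibitor gene passed the test in either direction. Limma with Benjamini-Hochberg adjustment over all probe sets called 0 of the 9 member probe sets at 0.05, and 0% of all 45037, the smallest adjusted p of any probe set being 0.658. At an unadjusted p under 0.05 there were 0 of 9 members, beside 3.71% of all probe sets. The 3 LRC values did not lie wholly above or below the 3 non-LRC values for any member, beside 8.28% of all probe sets. The mean was higher in LRC for 6 of the 9 probe sets, where 55.3% of all probe sets had a higher mean in LRC, and for 4 of the 7 genes by their brightest probe set, where 54.9% of all genes did. The median difference of the 9 was 0.24, against 0.04 over all probe sets. When arrays of this design were simulated, the test found 2% of 50 probe sets shifted by 1 log2 unit and 46% of those shifted by 2, with 8 false calls, so changes of the sizes below were mostly not detectable with 3 arrays a group.

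**Figure D1:**
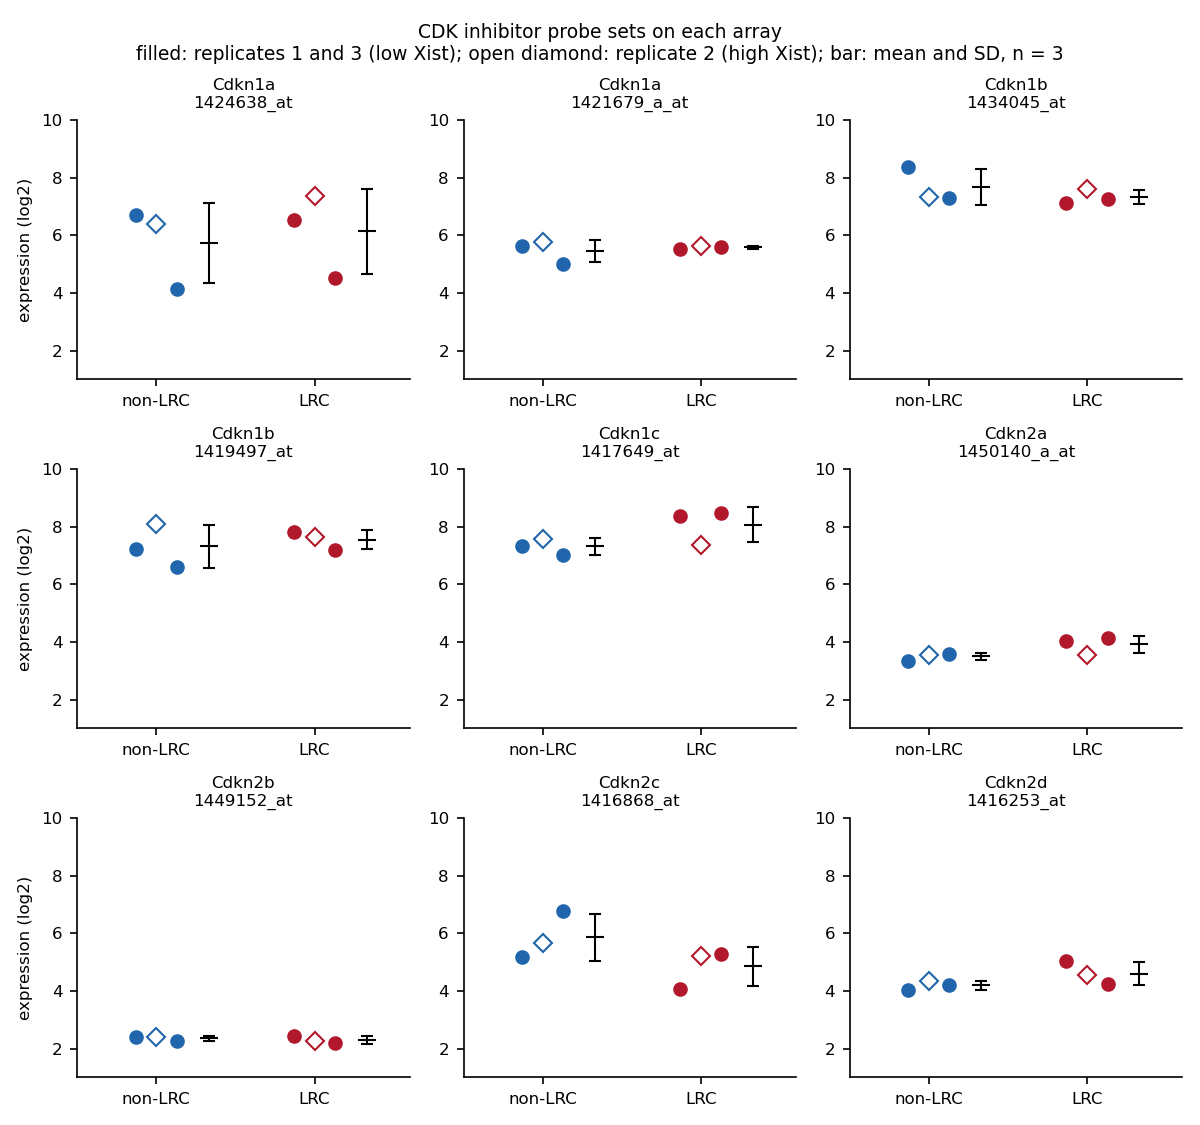
Expression (log2, vertical axis) of the 9 CDK inhibitor probe sets on each of the 3 non-LRC (blue) and 3 LRC (red) arrays, with the mean and SD of each group (n = 3) beside the points; open diamonds are replicate 2, the arrays with high Xist. The groups overlap in every panel, and the LRC values of Cdkn1c at 8.36 and 8.47 lie above all non-LRC values while replicate 2, at 7.37, does not.

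Cdkn1c, which encodes p57, had the smallest p of the members. Its values were 8.36, 7.37 and 8.47 in LRC replicates 1, 2 and 3, and 7.34, 7.58 and 7.01 in non-LRC (probe set 1417649_at). Replicates 1 and 3 of LRC lay above every non-LRC array, and LRC replicate 2 lay within the non-LRC range. The means were 8.07 ± 0.60 and 7.31 ± 0.28 (SD, n = 3 each), a difference of 0.76 (SE 0.35, 95% interval -0.08 to 1.59), or 1.69-fold. Fewer cells with the transcript and less of it in each cell cannot be told apart in sorted samples. Limma gave an unadjusted p of 0.0696 and an adjusted p of 0.998, and 5.45% of all probe sets had a p as small.

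The 2 LRC arrays with high Cdkn1c were also those with bright hybridization controls and low Xist. With the control level as a covariate in the fit the Cdkn1c difference was 0.23 (SE 0.34), and with both bright LRC arrays left out, which leaves LRC replicate 2, it was 0.06. Within the 4 arrays with low Xist it was 1.24, with both LRC values above both non-LRC values. Groups that did not overlap, in either direction, were found for 35.2% of all probe sets in those arrays. Within replicate 2, with 1 array a group, the Cdkn1c difference was -0.20. Without LRC replicate 2 it was 1.10 (unadjusted p = 0.00594, adjusted p = 0.592 by limma), where 7.11% of all probe sets had an unadjusted p under 0.05. No non-LRC array had bright controls, so that the part of the controls and that of the group cannot be told apart for this gene.

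**Figure D2:**
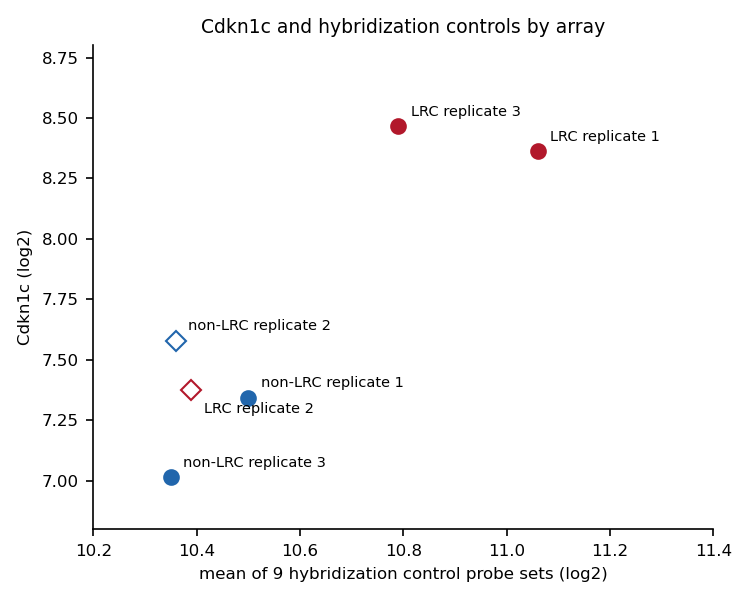
Cdkn1c (log2, vertical axis) against the mean of 9 hybridization control probe sets (log2, horizontal axis) on the 6 arrays, LRC in red and non-LRC in blue, with open diamonds for the arrays with high Xist. LRC replicates 1 and 3 stand apart at the upper right, and LRC replicate 2, at 7.37, lies among the non-LRC arrays.

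Cdkn1b, which encodes p27, had 2 bright probe sets that differed in sign. Probe set 1434045_at was at 7.12, 7.60 and 7.25 in LRC and at 8.38, 7.34 and 7.29 in non-LRC, which gave a difference of -0.35 (SE 0.35, 95% interval -1.18 to 0.49). Non-LRC replicate 1 stood far above the rest, and leaving it out brought the difference to 0.0064. Probe set 1419497_at was at 7.81, 7.66 and 7.18 in LRC and at 7.24, 8.10 and 6.61 in non-LRC, which gave a difference of 0.24 (SE 0.41, 95% interval -0.75 to 1.23). Here the highest and the lowest of the 6 values were both non-LRC. Across the 6 arrays the 2 probe sets had a Pearson correlation of -0.13, and their mean differed by -0.06 between the groups. A direction for Cdkn1b could therefore not be given.

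Cdkn1a, which encodes the p53 target p21, varied more between replicates than between groups. Its brighter probe set, 1424638_at, was at 6.52, 7.36 and 4.51 in LRC and at 6.70, 6.38 and 4.13 in non-LRC, which gave a difference of 0.40 (SE 0.94, 95% interval -1.89 to 2.68). Replicate 3 was the lowest array of both groups. With the replicate number as a block in the fit the SE was 0.29 (unadjusted p = 0.241 by limma). The difference turned to -0.22 without LRC replicate 2 and to -0.41 without non-LRC replicate 3. The other probe set, 1421679_a_at, was at 5.53, 5.62 and 5.59 in LRC and at 5.61, 5.75 and 5.02 in non-LRC, which gave a difference of 0.12 (SE 0.24, 95% interval -0.47 to 0.71), and of -0.10 without non-LRC replicate 3. Its 3 LRC values spanned less than 0.1 log2 units and lay inside the non-LRC range. The 2 probe sets had a Pearson correlation of 0.68 over the 6 arrays, which share their normalization. Within the 4 arrays with low Xist the brighter probe set differed by 0.105 and the dimmer by 0.25. Within replicate 2, with 1 array a group, they differed by 0.98 and -0.13.

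Among the INK4 genes, Cdkn2c, which encodes p18, had the largest difference of any member. Its values were 4.08, 5.20 and 5.28 in LRC and 5.16, 5.65 and 6.77 in non-LRC (probe set 1416868_at). LRC replicate 1, which had the largest Gapdh excess of the 3-prime end, was the lowest array and non-LRC replicate 3 the highest. The groups overlapped because non-LRC replicate 1 lay below LRC replicates 2 and 3. The means were 4.85 ± 0.67 and 5.86 ± 0.82 (SD, n = 3 each), a difference of -1.01 (SE 0.51, 95% interval -2.25 to 0.24), or 2.01-fold. Limma gave an unadjusted p of 0.0958 and an adjusted p of 0.998. As many as 4.71% of all probe sets differed by this much or more in size. The difference was -1.28 within the 4 arrays with low Xist and -0.45 within replicate 2, both lower in LRC. It was -0.62 without LRC replicate 1, -0.55 without non-LRC replicate 3, and -0.36 (SE 0.61) once the level of the hybridization controls was fitted too.

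Cdkn2a, which encodes p16 and ARF, was dim. Its values were 4.03, 3.56 and 4.14 in LRC and 3.35, 3.55 and 3.59 in non-LRC (probe set 1450140_a_at), which placed it between percentiles 33.4 and 46.2 of the probe sets of an array. LRC replicates 1 and 3 lay above all non-LRC values and LRC replicate 2 did not, the same arrays as for Cdkn1c. The difference was 0.42 (SE 0.22, 95% interval -0.12 to 0.95, unadjusted p = 0.109 by limma). It was 0.62 within the 4 arrays with low Xist, 0.01 within replicate 2, and 0.20 (SE 0.25) with the control covariate. Over the 6 arrays the Pearson correlation of Cdkn2a with Cdkn1c was 0.90, the highest among the 36 pairs of member probe sets. Transcripts from both starts shown above share later exons, and this signal was not divided between p16 and ARF.

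Cdkn2d, the gene of the INK4 protein p19, was at 5.03, 4.54 and 4.22 in LRC and at 4.04, 4.35 and 4.19 in non-LRC (probe set 1416253_at). LRC replicates 1 and 2 lay above every non-LRC array, and LRC replicate 3 below non-LRC replicate 2. The difference was 0.41 (SE 0.26, 95% interval -0.21 to 1.03, unadjusted p = 0.162 by limma), 0.51 within the arrays with low Xist and 0.20 within replicate 2. It was 0.19 without LRC replicate 1 and 0.24 (SE 0.33) with the control covariate.

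Cdkn2b, which encodes p15 and lies next to Cdkn2a in the genome, was near the floor of every array. Its values were 2.45, 2.25 and 2.19 in LRC and 2.41, 2.41 and 2.25 in non-LRC (probe set 1449152_at), between percentiles 9.14 and 16.3 of an array. The 6 values spanned 0.26 log2 units, and the difference was -0.06 (SE 0.18, 95% interval -0.49 to 0.37). It was -0.0094 within the 4 arrays with low Xist and -0.16 within replicate 2. At this brightness a change in the transcript may not be seen.

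**Figure D3:**
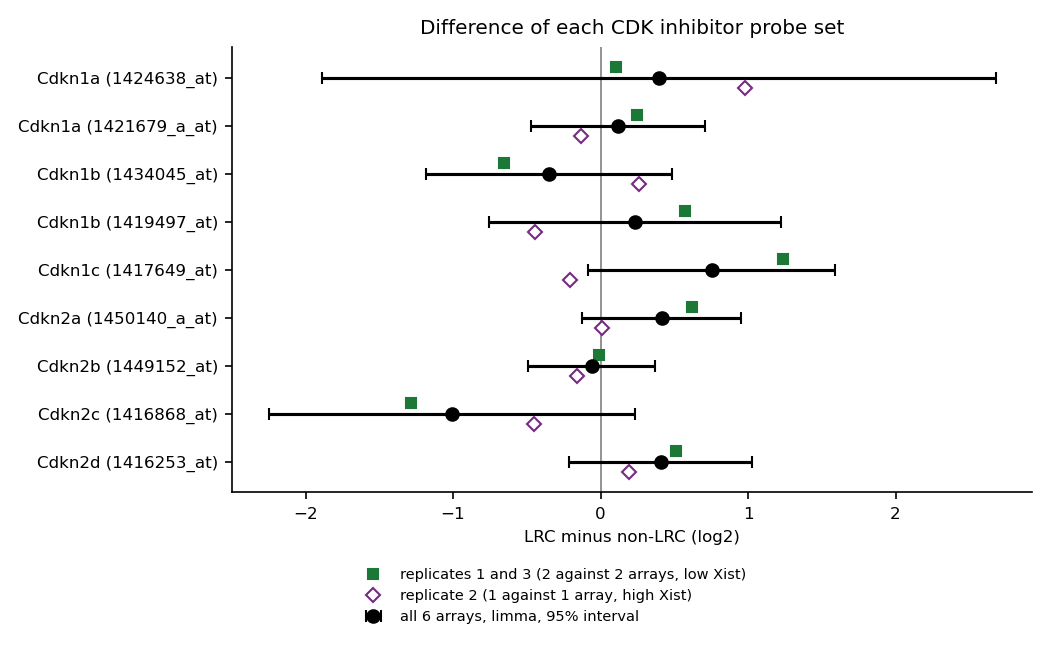
Difference LRC minus non-LRC (log2, horizontal axis) of each CDK inhibitor probe set, as limma's estimate with its 95% interval over all 6 arrays (black), within the 4 arrays with low Xist (green squares) and within replicate 2 (open diamonds). Every interval includes 0, and for Cdkn1c the within-subset values lie at 1.24 and -0.20.

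The spread between members' arrays was uneven. Values of the brighter Cdkn1a probe set spanned 3.23 log2 units over the 6 arrays, those of Cdkn2c 2.69 and those of Cdkn1c 1.45. The half-width of the 95% interval ran from 0.43 for Cdkn2b to 2.28 for Cdkn1a. A difference of the size seen for Cdkn1c would thus lie outside the interval around 0 for Cdkn2a, Cdkn2d, Cdkn2b and the dimmer Cdkn1a probe set. It would not for Cdkn1c itself (half-width 0.84), Cdkn1b, Cdkn2c or the brighter Cdkn1a probe set. These intervals come from the unpaired fit and, unlike the test, are not adjusted over all probe sets. Cdkn2b was near the floor and Cdkn2a was dim, so their narrow intervals do not exclude a change of that size in the transcript.

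The kinases and cyclins that the inhibitors bind were compared next, each gene by its brightest probe set. Of 12 measured, 6 had a higher mean in LRC, beside 54.9% of all genes. None passed the test, 0% of all genes being called. In 3 of the 12, Ccna2, Ccnb2 and Cdk2, every LRC array was lower than every non-LRC array, as in 3.62% of all genes. In 0 every LRC array was higher, as in 4.71% of all genes, so that 8.32% of genes had groups that did not overlap. Ccna2, cyclin A2, was at 4.99, 6.87 and 6.85 in LRC and at 8.79, 7.20 and 8.60 in non-LRC, which gave a difference of -1.96 (SE 0.66). Ccnb2, a mitotic cyclin, differed by -1.39 (SE 0.66). Cdk1, of the same list and named after its values were seen, differed by 0.14. With the control covariate Ccna2 was at -1.22 and Ccnb2 at -0.46. Cdk2, the chief target of CIP/KIP proteins, was at 5.41, 5.27 and 5.47 in LRC and at 6.58, 5.57 and 6.95 in non-LRC. It differed by -0.99 (SE 0.37), or by -1.10 with that covariate, while its 1 further probe set pointed the other way. Cyclin E2, Ccne2, near the array floor, differed by -0.42 (SE 0.30).

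CDK4 and CDK6 are the kinases that INK4 proteins bind. Cdk4 differed by -0.13 (SE 0.19) and Cdk6 by -0.19 (SE 0.29), and both further probe sets of each gene pointed the same way. The D-type cyclins had higher means in LRC, by 0.49 (SE 0.44) for Ccnd1, 0.22 (SE 0.20) for Ccnd2 and 0.07 (SE 0.24) for Ccnd3. Only 3 of the 6 further Ccnd2 probe sets pointed the same way, while both of Ccnd1 and both of Ccnd3 did. By the brightest probe set the groups overlapped for all 5 genes, and Ccnd3 was at -0.12 in the 4 arrays with low Xist. Over the 12 genes the median difference was -0.05, against 0.03 over all genes. It was -0.14 with the control covariate, -0.13 in the 4 arrays with low Xist and -0.22 with LRC replicate 2 alone set against non-LRC.

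Pocket proteins and E2F factors, which act after the kinases, had 5 of 13 genes with a higher mean in LRC, beside 54.9% of all genes, and 0 that passed. The median difference was -0.17, -0.02 once the control level was fitted, and -0.46 in the 4 arrays with low Xist. In 2 genes, Tfdp1 and E2f2, every LRC array was lower than every non-LRC array, as in 3.62% of all genes, and in 0 every LRC array was higher. Tfdp1, the dimerization partner of E2F factors, was at 8.09, 8.32 and 7.68 in LRC and at 8.77, 8.40 and 8.70 in non-LRC, which gave a difference of -0.60 (SE 0.24). E2f2 differed by -0.56 (SE 0.24). E2f8, an E2F that represses transcription, differed by -1.80 (SE 0.79), or by -0.35 with the control covariate. Rbl2, the pocket protein p130 found in resting cells, was higher in LRC by 0.71 (SE 0.45), or by 0.05 with the control covariate, but its 1 further probe set pointed the other way, and LRC replicate 1, at 8.62, was far above the other 5 arrays.

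CIP/KIP proteins are also set by their breakdown, through SCF-Skp2 with its cofactor Cks1b and through CRL4 with Dtl and Pcna. The list of 14 genes for this breakdown went beyond these ligases and also held Rnf123, Ubac1, Fbxl12 and Cops5. Of the 14 genes 5 had a higher mean in LRC, beside 54.9% of all genes, 0 passed and 0 were separated between the groups (median difference -0.06). Skp2 differed by 0.07 (SE 0.37), a sign shared by 2 of its 5 further probe sets, and by -0.46 within the arrays with low Xist. Cks1b differed by -0.45 (SE 0.24), the scaffold Cul1 by -0.56 (SE 0.34) and Pcna by -0.35 (SE 0.26), or by 0.02 with the control covariate. Dtl was at 3.27, 7.05 and 3.19 in LRC and at 6.94, 6.79 and 6.61 in non-LRC, so that LRC replicates 1 and 3 were low and replicate 2 was not. Its difference of -2.27 (SE 1.03) became -0.36 with the control covariate, and 2 of its 5 further probe sets pointed the same way.

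Of 32 measured transcriptional regulators of the inhibitor genes 18 had a higher mean in LRC, beside 54.9% of all genes, and 0 passed (median difference 0.10). The groups did not overlap for 3, where 8.32% of all genes had such groups: LRC was higher for Ets2 and Twist1 and lower for Tcf3. Bmi1, the Polycomb repressor of Cdkn2a, was at 8.13, 7.18 and 8.31 in LRC and at 5.87, 7.60 and 7.40 in non-LRC. Its difference was 0.92 (SE 0.54), with LRC replicate 2 again within the non-LRC range. The other Polycomb genes of the list, named after the values were seen, went both ways. Ezh2 differed by -1.18, Suz12 by -0.46, Ring1 by -0.27 and Cbx8 by -0.03. Rnf2 differed by 0.45, Cbx7 by 0.31 and Eed by 0.31. Gfi1, a repressor that restrains HSC division, differed by 1.16 (SE 0.55), or by 0.28 with the control covariate. Ets2, an activator of Cdkn2a, had a difference of 0.65 (SE 0.28), but both further probe sets pointed the other way. Tcf3, which encodes the E proteins that activate Cdkn1a, differed by -1.33 (SE 0.45), again against both of its further probe sets. Twist1, a repressor of Cdkn2a named after its values were seen, differed by 0.25. Myc, which represses several of the inhibitors, differed by -0.76 (SE 0.37), or by -0.08 with the control covariate.

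Other p53 targets stood beside Cdkn1a without a common direction. Of 21 measured 13 had a higher mean in LRC, beside 54.9% of all genes, and 0 passed (median difference 0.05). For 1, the kinase gene Plk2, every LRC array was higher than every non-LRC array, as in 4.71% of all genes. Plk2 differed by 0.75 (SE 0.39), against its 1 further probe set, and the translesion polymerase gene Polk by 0.89 (SE 0.46). Sesn1, a stress-induced inhibitor of mTORC1 signalling, differed by 0.52 (SE 0.28), and all 3 further probe sets pointed the same way. Mdm2, which feeds back on p53, differed by -0.42 (SE 0.43), a sign shared by 1 of its 2 further probe sets. With the control covariate Mdm2 was at 0.06. Rrm2b, a ribonucleotide reductase subunit, differed by -0.72 (SE 0.39), or by -0.13 with the covariate, and 0 of its 3 further probe sets pointed the same way. Trp53 itself is not analysed here.

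Cdkn1c lies in the imprinted Kcnq1 domain and is expressed mainly from the maternal allele. Of 12 other genes of the domain 4 had a higher mean in LRC, beside 54.9% of all genes, 0 passed and 0 were separated. The median difference was -0.01, and -0.15 with the control covariate. Kcnq1ot1, the paternally expressed transcript that silences the domain in cis, was at 8.81, 9.07 and 9.70 in LRC and at 9.04, 9.50 and 9.95 in non-LRC, which gave a difference of -0.31 (SE 0.34). Tssc4, Cd81 and Ascl2, which with Kcnq1ot1 had the smallest p of the domain, differed by 0.36 (SE 0.25), 0.22 (SE 0.23) and 0.17 (SE 0.23), and with the control covariate by 0.24, -0.03 and -0.13. The genes nearest to Cdkn1c on either side, named for their position after the values were seen, differed by -0.02 for Trpm5, 0.22 for Kcnq1, -0.09 for Slc22a18 and -0.26 for Phlda2. Beside Cdkn2a and Cdkn2b, Mtap, an enzyme of methionine salvage, differed by -0.14 (SE 0.35), while Elavl2 and Dmrta1 were near the array floor.

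**Figure D4:**
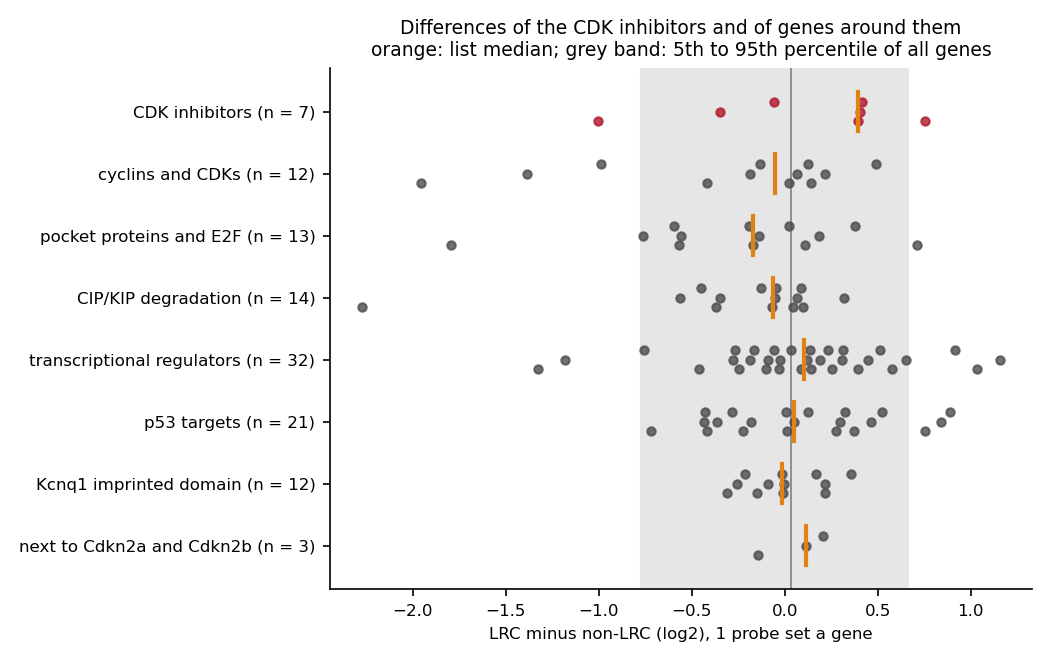
Difference LRC minus non-LRC (log2, horizontal axis) of each gene, by its brightest probe set, for the 7 CDK inhibitors (red) and the genes around them (grey), with list medians in orange and the range of the 5th to the 95th percentile of all genes (-0.77 to 0.66) as a band. The median of the 7 inhibitors was 0.40, with Cdkn2c at -1.01 and Cdkn1c at 0.76 outside the band.

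The genes whose pattern over the 6 arrays was most like each bright member were listed by Pearson correlation among 10741 other genes. For Cdkn1c these were Ints10 (0.99), Rab3ip (0.98) and Cstad (0.98), and 102 genes exceeded 0.9. For Cdkn2c they were Rcn1 (0.99), Sf3a3 (0.99) and Rraga (0.98), for Cdkn1b Septin4 (0.99), Ears2 (0.99) and Llgl1 (0.99), and for Cdkn1a Tspan8 (0.98), Fyttd1 (0.98) and Tsc22d1 (0.98). With 6 arrays of shared normalization such values are found for many genes by the search alone, and they are given as a description.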

How the data were processed

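Expression in 6 sorted HSC samples was measured on 1 Affymetrix mouse array each, after 2 rounds of RNA amplification, per the labels' protocols. The authors deposited log2 values, 1 per probe set and array. The submitters' processing notes name RMA and give no version for it. The log base was read from the range of the values. RMA equalizes array distributions and hides any change in the total RNA of a cell. Arrays carry no read depth, and their number limits the precision.

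Control probe sets (64 of 45101) were left out. Symbols came from the platform annotation, updated through gene identifiers to RefSeq (GRCm38.p6). LRC was set against non-LRC in R 4.3.3 by limma 3.58.1 (lmFit, eBayes, no covariate), adjusted by Benjamini-Hochberg over 45037 probe sets at 0.05, and tested on simulated data. An exact permutation test of 3 against 3 arrays cannot give a p below 0.1 and was not used. P-values measure the spread between these samples. All members were reported, with up to 4 genes of smallest p and some fixed genes from each of 7 lists. Members and lists were chosen with earlier results of these data known. The Xist settings were added after the data were seen.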

Additional observations from a re-analysis of the deposited data

How the results depend on the processing

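No member was called under any of 16 alternatives (smallest adjusted p 0.592, for Cdkn1c without LRC replicate 2), and 0 probe sets were called by limma over the whole array under each; at an unadjusted p under 0.05 there were 1673. Cdkn1c, Cdkn2a, Cdkn2b, Cdkn2c and Cdkn2d kept their sign over these fits, Cdkn2a and Cdkn2b over 15 alternatives because the filter on low values removed them. Within replicate 2, with 1 array a group and not among these fits, Cdkn1c was at -0.20. Of 142 member differences 5 turned, all on leaving out 1 array: the brighter Cdkn1a probe set ranged from -0.41 to 1.21 (-0.22 without LRC replicate 2), the dimmer from -0.10 to 0.27, and the Cdkn1b probe sets from -0.54 to 0.0064 and from -0.12 to 0.63. Leaving out LRC replicate 2 gave 3 members with non-overlapping groups (Cdkn1c, Cdkn2a and 1 Cdkn1b probe set), beside 25.4% of all probe sets. Leaving out any other single array gave 0 to 2, beside 15.9% to 17.9% of all probe sets. With both LRC arrays of bright controls left out there were 2 (47.2% of all) and in the 4 arrays with low Xist 4 (35.2% of all). Fewer arrays make separation easier by construction.

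With the replicate number as a block limma called 0 probe sets. Deviations of arrays with the same number correlated at 0.080, 0.141 and 0.081. Yet all 6 arrays correlated best with their own number across groups, and the arrays with high Xist shared a number. Whether the numbers mark pairs was therefore not settled, and the main fit is unpaired. With the block the SE of the brighter Cdkn1a probe set fell from 0.94 to 0.29, while that of Cdkn1c rose from 0.35 to 0.39. The block left the Cdkn1c difference at 0.76 (SE 0.39) and gave Cdkn2c an unadjusted p of 0.0199 (adjusted p = 0.929). With 3 arrays a group, log2 changes of 1 were mostly out of reach.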

Other observations

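Cdkn3 shares the family's name and is no inhibitor of the CIP/KIP or INK4 kind: it encodes a phosphatase that acts on CDK2 and is known to be made by dividing cells. It was chosen after its values were seen. It was at 3.69, 3.81 and 2.70 in LRC and at 4.50, 5.59 and 4.98 in non-LRC (probe set 1430574_at), so that every LRC array lay below every non-LRC array, as for 3.4% of all probe sets in that direction. The difference was -1.62 (SE 0.41, 95% interval -2.61 to -0.63), or 3.08-fold, with an unadjusted p of 0.00667 and an adjusted p of 0.998 by limma. By its mean the probe set lay at percentile 46.7, below the median of all probe sets. Values under the other settings are not given for it.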
